A study of Homo sapiens with 3 samples.

Results

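The MYC network comprises MYC, its dimer partner MAX, and the genes whose proteins compete with MYC for MAX: the MXD family (MXD1, MXD3, MXD4 and MXI1), MNT and MGA. These 8 genes were looked up by their Entrez identifiers among the 25702 genes of the deposited tables, and each was found once. All 8 had at least 10 counts in at least 1 library, the minimum for a test, as did 12879 genes in all. RNA was sequenced from Molm13 cells, a human acute myeloid leukemia line with an internal tandem duplication in FLT3, after 6 h with the vehicle DMSO, with 50 nM pyrvinium or with 100 nM pyrvinium. Pyrvinium is an anthelmintic drug that was tested in the study against leukemia cells. Summed over all genes, the counts came to 23165771 with DMSO, 22677038 with 50 nM and 24075123 with 100 nM. There is 1 library per condition, so no difference could be checked on a replicate: testing counts compares libraries, not conditions, and every interval given covers counting error only. Both doses are compared with the same DMSO library, so a high or low value there enters both comparisons.

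MYC is a basic helix-loop-helix leucine zipper transcription factor that binds E-box DNA, with the core CACGTG, only as a dimer with MAX, and it raises the expression of genes for ribosome production, nucleotide synthesis and cell division. The MXD proteins and MNT also dimerize with MAX and bind E-boxes, but recruit the SIN3 corepressor with its histone deacetylases, and MXD proteins are best known for their appearance as blood cells mature. MGA joins MAX to a Polycomb-type repressor complex, and MLX dimerizes with several MXD proteins and MNT in a parallel branch that responds to glucose.

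The libraries carried a myeloid profile. Of 13 myeloid markers, 12 had at least 10 counts in each library, and their summed counts were 34456 in DMSO, 35162 at 50 nM and 38832 at 100 nM. Among them LYZ had 7607, 7067 and 7768 counts, and FLT3 had 6304, 9012 and 11181. Without FLT3 the sums were 28152, 26150 and 27651, lower at both doses than in DMSO. At 100 nM, the transcription factor genes SPI1 (-0.32), HOXA9 (-0.24) and CEBPA (-0.12) fell on the log2 scale, and FLT3 (0.77), MPO (0.57) and MEIS1 (0.13) rose, past the adjusted test described with MYC. CD14, which marks mature monocytes, had 2, 2 and 1 counts. Among 8 T and NK cell markers, CD3E, CD2, CD5 and GNLY had 0 counts in each library. CD3G had 0, 1 and 1, and CD8A had 5, 5 and 6. CD3D had 26, 18 and 13, lower at both doses than in DMSO, but neither difference passed the adjusted test. The list summed to 660, 821 and 962 counts, of which NCAM1 gave 629, 797 and 942. B cell markers summed to 10, 17 and 13 counts over 5 genes, erythroid and megakaryocyte markers to 2, 18 and 5 over 7 genes, and epithelial and fibroblast markers to 8, 12 and 21 over 7 genes. The erythroid sum at 50 nM was mostly HBB, the beta globin gene, with 16 counts against 0 in the other libraries. Because the samples are bulk RNA of a cell line, fewer cells expressing a marker and less of its RNA per cell cannot be told apart.

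MYC (Entrez 4609, chr8:128748315-128753680 in hg19, plus strand) had 21175 counts in DMSO, 28215 at 50 nM and 33596 at 100 nM. The counts were lowest in the vehicle library and highest at the higher dose. MYC took 0.0914%, 0.124% and 0.140% of all counts. MYC was already high without drug. By RPKM (counts divided by exon length and scaled library size), the scale on which levels of different genes are compared here, it was at 386 in DMSO, 527 at 50 nM and 589 at 100 nM. That placed it at rank 158, 124 and 108 among the 12879 tested genes.

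On the log2 scale, MYC rose by 0.45 at 50 nM against DMSO (95% counting interval 0.42 to 0.47) and by 0.61 at 100 nM (0.58 to 0.63), or 1.36-fold and 1.53-fold. Between the doses it rose by 0.16 (0.14 to 0.18). Each of the 3 differences passed the exact binomial test, with Benjamini-Hochberg adjustment over the 12879 genes, at an adjusted p of at most 0.05. The estimate of the 100 nM rise also exceeded 1.5-fold, as did 4.31% of tested genes in that direction, though its counting interval reached just below 1.5-fold. MYC was the only member of the network past that threshold. None of the 8 members reached 2-fold with that adjusted p in any comparison, where 0.955% of tested genes did so at 50 nM, 2.20% at 100 nM and 0.497% between the doses. These calls rest on counting error. When edgeR's exact test was given an assumed biological coefficient of variation of 0.1, the adjusted p of MYC was 0.931 at 50 nM and 0.107 at 100 nM, and 0 of the 8 members passed in any of the 3 comparisons. Over all 12879 genes, 36 then passed at 50 nM, 244 at 100 nM and 16 between the doses. The numbers of genes past the test in the lists, and the shares of all genes beside them, rest on counting error likewise.

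Without the fold threshold, 2 of 8 members were higher at 50 nM (MYC and MGA) and 1 was lower (MXD4), beside 14.3% of all tested genes higher and 13.9% lower. At 100 nM, 2 were higher (MYC and MGA) and 0 were lower, beside 21.1% and 22.0%. From 50 to 100 nM, 1 was higher (MYC) and 0 were lower, beside 7.69% and 9.25%. With so few members, these counts are read one gene at a time. The median log2 fold change over the members was -0.03 at 50 nM and 0.04 at 100 nM, and over all tested genes it was 0.00071 and -0.0023.

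**Figure D1:**
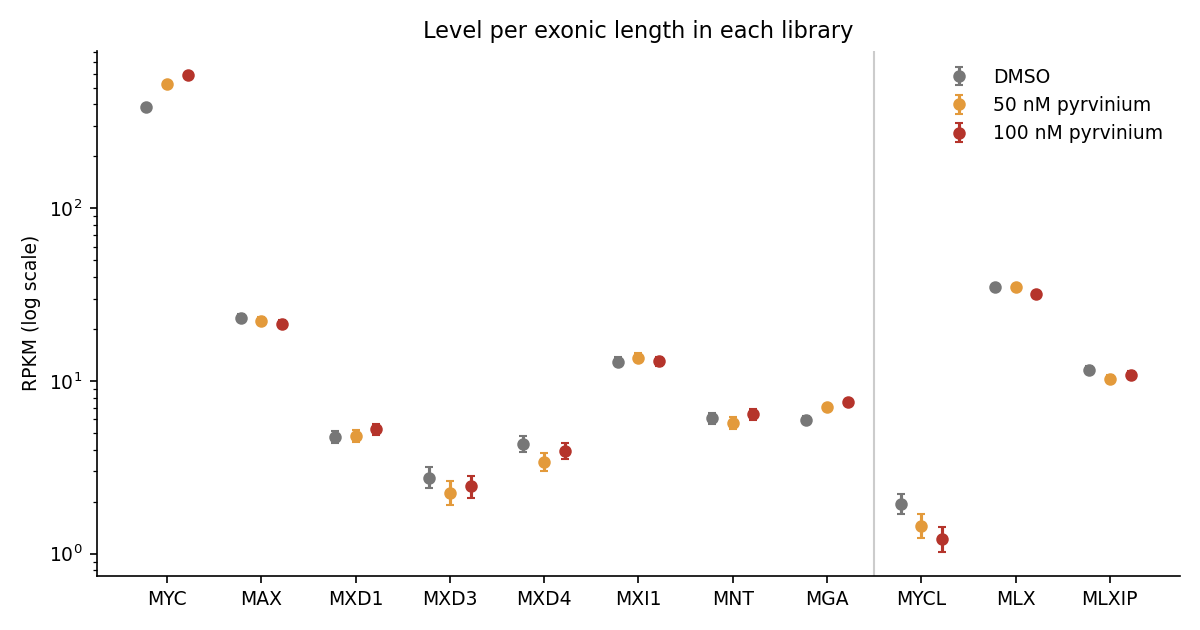
Level of each network gene in RPKM, on a log axis, in the DMSO (grey), 50 nM (orange) and 100 nM (red) libraries, 1 library each; bars are exact 95% Poisson intervals of the counts. The 8 members stand left of the grey line and 3 other network genes right of it, and MYC lies far above the rest, at 386 to 589.

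PVT1, a long noncoding RNA gene next to MYC on the same strand, counted 705 in DMSO, 741 at 50 nM and 841 at 100 nM. The log2 fold change of PVT1 was 0.11 at 50 nM (-0.04 to 0.26), which did not pass the test, and 0.20 at 100 nM (0.05 to 0.34), which did. MYC rose by more than PVT1: the log2 ratio of MYC to PVT1 was 0.34 higher at 50 nM than in DMSO (0.19 to 0.49) and 0.41 higher at 100 nM (0.26 to 0.56).

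MAX (Entrez 4149, chr14:65472892-65569227 in hg19, minus strand) encodes the partner for which MYC and the antagonists compete. Its counts were 1554 in DMSO, 1451 at 50 nM and 1489 at 100 nM, or 23.3, 22.3 and 21.4 RPKM. Its log2 fold change was -0.06 at 50 nM (-0.17 to 0.04) and -0.12 at 100 nM (-0.22 to -0.02), and neither passed the adjusted test (adjusted p = 0.409 and 0.0557 in the exact binomial test). Per length, MYC RNA exceeded MAX RNA 16.6-fold in DMSO, 23.7-fold at 50 nM and 27.5-fold at 100 nM. The log2 ratio of MYC to MAX was higher by 0.51 at 50 nM (0.41 to 0.62) and by 0.73 at 100 nM (0.62 to 0.83), and it also differed between the doses, by 0.21 (0.11 to 0.32).

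Of the other MYC family genes, MYCN had 0 counts in each library, which allows a share of up to 1.32e-05% of the counts (3 counts of the total). MYCL (Entrez 4610, chr1:40361096-40367687 in hg19) had 223 counts in DMSO, 162 at 50 nM and 145 at 100 nM. It was lower at both doses, opposite to MYC. MYCL fell by 0.43 on the log2 scale at 50 nM (-0.73 to -0.13) and by 0.68 at 100 nM (-0.99 to -0.37), each past the adjusted test (adjusted p = 0.0204 and 5.25e-05 in the exact binomial test). Its level was small beside that of MYC, at 1.94, 1.45 and 1.21 RPKM.

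The antagonists were all expressed at modest levels. In DMSO the order per length was MXI1 at 12.97 RPKM, MNT at 6.08, MGA at 5.98, MXD1 at 4.75, MXD4 at 4.32 and MXD3 at 2.76. MNT and MGA did not differ beyond their counting intervals there (5.63 to 6.55 and 5.70 to 6.27 RPKM), nor did MXD1 and MXD4 (4.38 to 5.14 and 3.90 to 4.78). After pyrvinium this order changed in 1 place: MGA stood above MNT, at 7.03 (6.72 to 7.35) against 5.74 RPKM (5.30 to 6.21) at 50 nM and at 7.58 (7.27 to 7.91) against 6.40 RPKM (5.95 to 6.87) at 100 nM. The lengths are those of all annotated exons of a gene, so a gene that mostly makes a short transcript reads low on this scale.

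MXD1 (Entrez 4084, chr2:70142203-70170077 in hg19, plus strand), the founding MXD gene, had 615 counts in DMSO, 606 at 50 nM and 708 at 100 nM. The MXD1 differences on the log2 scale, 0.01 (-0.15 to 0.18) and 0.15 (-0.01 to 0.30), did not pass the test. MXI1 (Entrez 4601, chr10:111967363-112047123 in hg19, plus strand), the most abundant antagonist, had 1153, 1184 and 1204 counts. It was level across the libraries, with log2 fold changes of 0.07 (-0.05 to 0.19) and 0.01 (-0.11 to 0.12), so that at this depth a change beyond 0.19 in either direction lies outside both intervals.

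MXD3 (Entrez 83463, chr5:176732501-176739292 in hg19, minus strand), the MXD gene linked to the S phase of dividing cells, had the lowest counts of the 8 members, with 202 in DMSO, 161 at 50 nM and 187 at 100 nM. For MXD3 the log2 fold changes were -0.29 (-0.60 to 0.01) and -0.17 (-0.46 to 0.13), neither past the test. MXD3 shares 721 of its 3161 exonic bases, 22.8%, with PRELID1 on the opposite strand. Since the strand setting of the counting was not given in the sources used here, its values are uncertain. MAX shares 108 of 2880 bases with its antisense gene MAX-AS1, and the other 6 members share 0 exonic bases with any listed gene.

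MXD4 (Entrez 10608, chr4:2249160-2263739 in hg19, minus strand), a family member expressed in resting and differentiated cells, had 378 counts in DMSO, 290 at 50 nM and 358 at 100 nM. The 50 nM library was the low one. MXD4 fell by 0.35 on the log2 scale at 50 nM (-0.57 to -0.12), with an adjusted p of 0.0108 in the exact binomial test, and was at -0.14 at 100 nM (-0.35 to 0.08), which did not pass. The difference between the doses, 0.21 (-0.01 to 0.44), was not past the test either, so the response to the 2 doses is not shown to differ.

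MNT (Entrez 4335, chr17:2287354-2304258 in hg19, minus strand) encodes the widely expressed MAX-binding repressor that opposes MYC in dividing cells. It had 682, 629 and 747 counts, with log2 fold changes of -0.08 (-0.24 to 0.08) and 0.07 (-0.08 to 0.23), neither past the test. MGA (Entrez 23269, chr15:41952610-42062141 in hg19, plus strand) encodes a very large protein with a T-box as well as a MAX-binding domain. Its counts went from 1669 in DMSO to 1915 at 50 nM and 2202 at 100 nM. MGA was the only antagonist that passed the test at both doses, higher by 0.23 on the log2 scale (0.14 to 0.33) and by 0.34 (0.25 to 0.44), with adjusted p = 1.80e-05 and 2.85e-12 in the exact binomial test. Its rise between the doses, 0.11 (0.02 to 0.20), did not pass after adjustment (adjusted p = 0.0778 in the exact binomial test).

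**Figure D2:**
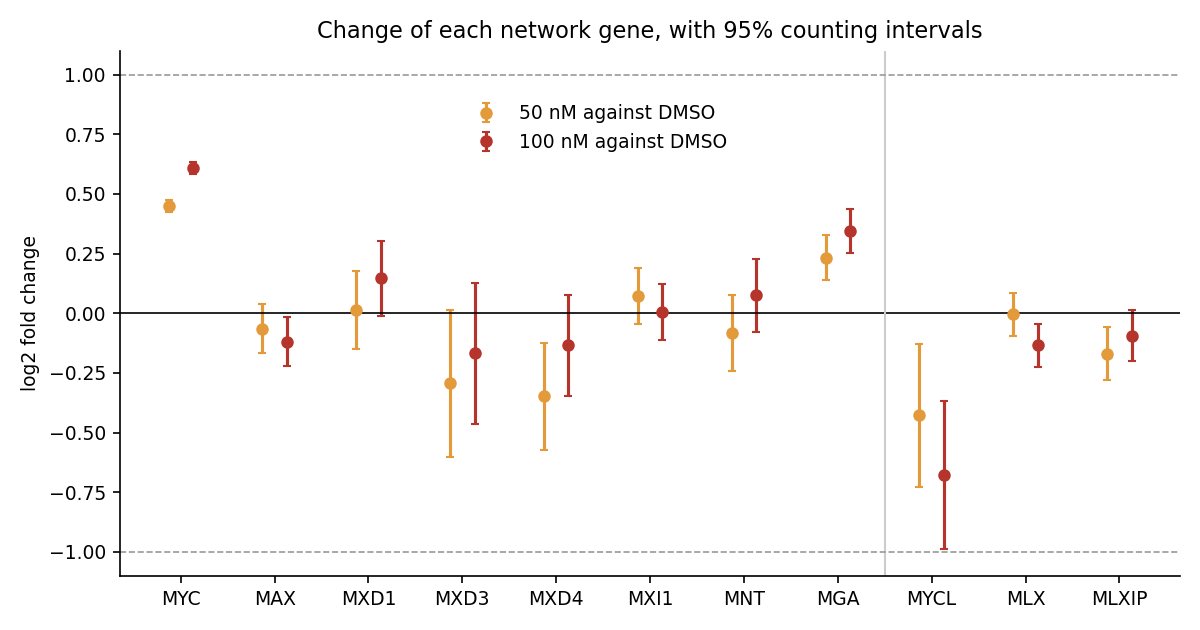
Log2 fold change of each network gene at 50 nM (orange) and 100 nM (red) against the shared DMSO library; bars are 95% Clopper-Pearson intervals of the count ratio, and dashed lines mark 2-fold. The intervals of MYC and MGA lie above 0 and that of MYCL below 0 at both doses, and no point reaches a dashed line.

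Because the antagonists and MYC all bind E-boxes, the promoters of the members were read for that motif, and for TGATGNAA, the core of the element bound by the stress factor ATF4 with a C/EBP partner, since the study concerns the integrated stress response. RefSeq windows on GRCh38.p14 were found for 7 of the 8 members, all except MYC. The 250 bases before the start were searched on both strands for CACGTG, which reads the same on both, and for TGATGNAA. Where a gene had several windows, the window whose start site, matched exactly to GRCh37, lay nearest to the start of the gene in the deposited tables was used. CACGTG occurred in 2 of 7 members, MXD4 and MNT, and in 6.49% of the 27305 promoters of this length. TGATGNAA occurred in 0 of 7, and in 3.19% of all. The promoters of MXD4 (GRCh38.p14, chr4:2262110-2262359, minus strand), MNT (chr17:2401061-2401310, minus strand) and MGA (chr15:41660155-41660404, plus strand) are shown 5′ to 3′ up to the last base before the start, the first pair for the motif, in capitals, and MGA as the antagonist that rose.
MXD4: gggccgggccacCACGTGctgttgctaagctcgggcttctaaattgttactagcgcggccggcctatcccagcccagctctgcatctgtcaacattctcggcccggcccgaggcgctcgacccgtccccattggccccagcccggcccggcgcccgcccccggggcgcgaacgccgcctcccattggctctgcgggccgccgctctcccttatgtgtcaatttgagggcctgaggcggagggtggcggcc
MNT: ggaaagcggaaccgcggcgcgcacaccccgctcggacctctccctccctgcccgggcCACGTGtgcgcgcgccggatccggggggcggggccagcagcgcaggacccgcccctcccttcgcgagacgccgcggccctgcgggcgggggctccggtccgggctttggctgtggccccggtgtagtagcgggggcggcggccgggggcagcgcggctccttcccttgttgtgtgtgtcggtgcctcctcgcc
MGA: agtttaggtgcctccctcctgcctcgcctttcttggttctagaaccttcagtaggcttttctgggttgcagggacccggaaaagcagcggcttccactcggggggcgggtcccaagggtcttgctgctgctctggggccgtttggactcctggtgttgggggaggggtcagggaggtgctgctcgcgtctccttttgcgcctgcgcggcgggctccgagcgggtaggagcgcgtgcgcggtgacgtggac
The motif begins 238 bases before the start of MXD4 and 193 bases before that of MNT. The MGA window starts transcription 7 bases from the start of the gene in the deposited tables, and it holds neither motif. The letters G and C make up 70.4%, 78.0% and 65.2% of the 3 windows.

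The balance between the activator and its antagonists was expressed as the log2 ratio of MYC RPKM to the summed RPKM of the 6 antagonists. The sum was 36.9 RPKM in DMSO, 36.8 at 50 nM and 38.6 at 100 nM. It was the same within counting error at 50 nM, with a log2 change of -0.00045 (-0.06 to 0.06), and 0.07 higher at 100 nM (0.01 to 0.13). MYC exceeded the sum 10.5-fold in DMSO (10.1 to 10.8), 14.3-fold at 50 nM (13.8 to 14.8) and 15.2-fold at 100 nM (14.8 to 15.7). The balance thus stood at 3.39, 3.84 and 3.93 on the log2 scale. Against DMSO it was 0.45 higher at 50 nM (0.38 to 0.52) and 0.54 higher at 100 nM (0.47 to 0.61), and between the doses it was 0.09 higher (0.03 to 0.16). That last difference was 0.13 with only the 4 MXD family genes (0.04 to 0.21), 0.10 without MGA (0.02 to 0.18) and 0.08 with summed counts without length (0.02 to 0.14). With the mean of the log2 levels of the antagonists in place of the sum it was 0.05, and its interval included 0 (-0.03 to 0.13). Of the 6 antagonists taken alone only MXI1, at 0.23 (0.11 to 0.35), gave an interval without 0.

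The shift in balance was carried by MYC itself, whose own log2 changes were 0.45 and 0.61, and the antagonist sum moved by at most 0.07. Within the sum the shares moved. MGA made up 16.2% of the antagonist RPKM in DMSO, 19.1% at 50 nM and 19.6% at 100 nM. MXI1 was the largest share in each library, with 35.2%, 37.0% and 33.7%. MXD4 gave 11.7%, 9.22% and 10.2%.

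Set against each antagonist alone, MYC gained on all 6 at both doses beyond counting error. The gain was smallest against MGA, with a log2 ratio 0.22 higher at 50 nM (0.12 to 0.31) and 0.27 higher at 100 nM (0.17 to 0.36). Against MXD4 it was 0.80 at 50 nM (0.57 to 1.02) and 0.74 at 100 nM (0.53 to 0.95). MXD3, whose counts are uncertain because of the overlap, did not differ from MXD4 in this beyond counting error, at 0.74 (0.44 to 1.04) and 0.78 (0.49 to 1.07). When only the 4 MXD family genes were summed, the balance was 3.96 in DMSO, 4.45 at 50 nM and 4.58 at 100 nM. These are ratios of RNA, and say nothing of protein.

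**Figure D3:**
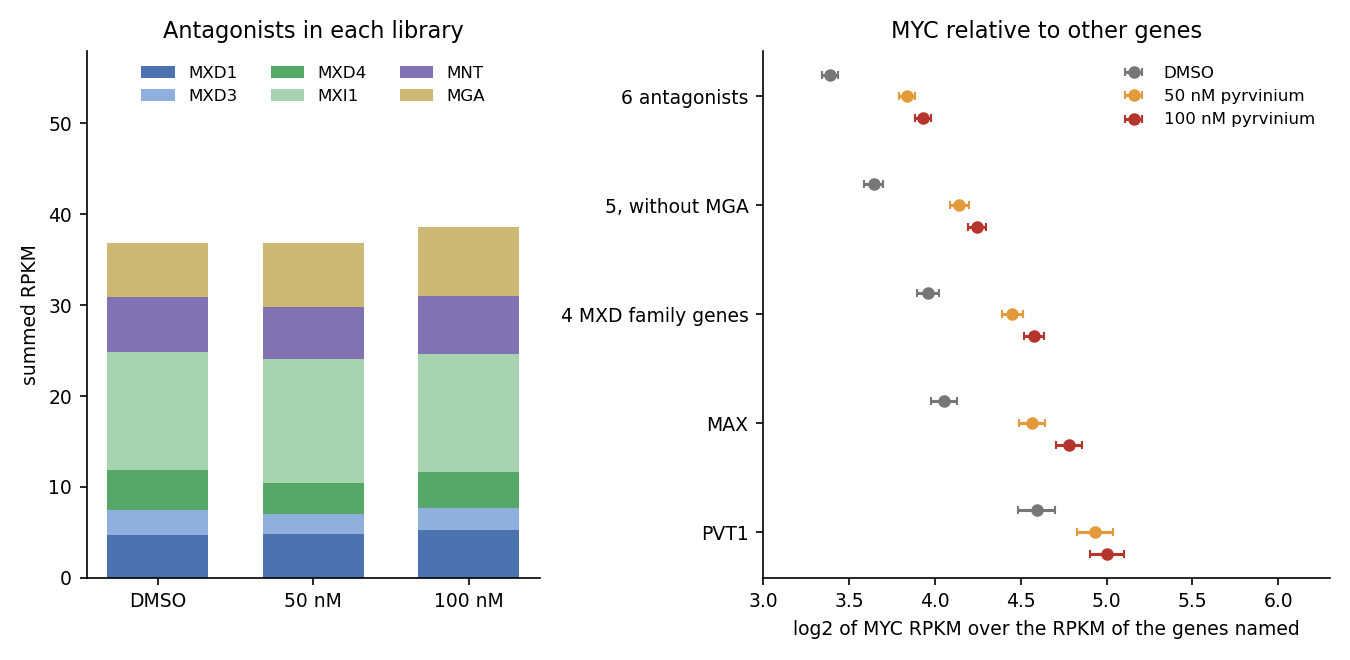
Left, RPKM of the 6 antagonists stacked for each library, which sum to 36.9, 36.8 and 38.6. Right, log2 ratio of MYC RPKM to the RPKM of the genes named on the vertical axis, in the DMSO (grey), 50 nM (orange) and 100 nM (red) libraries, with 95% counting intervals; in each row the DMSO point is the lowest.

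In the parallel branch, MLX had 2076 counts in DMSO, 2020 at 50 nM and 1967 at 100 nM, or 35.0, 34.8 and 31.8 RPKM, more per length than MAX. Its log2 fold change was -0.01 at 50 nM (-0.09 to 0.08), and it fell by 0.13 at 100 nM (-0.22 to -0.05). MLXIP, which encodes the MLX partner MondoA, had 1453, 1262 and 1415 counts. It fell by 0.17 at 50 nM (-0.28 to -0.06), with an adjusted p of 0.0119 in the exact binomial test, and was at -0.10 at 100 nM (-0.20 to 0.01), which did not pass. MLXIPL, for the glucose-responsive partner ChREBP, had 0, 0 and 1 counts.

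How far the members moved was read against 7087 well-counted genes, whose counts averaged 500 or more over the 3 libraries, where counting error is small. At 50 nM, 74 of these genes, 1.04%, had a higher log2 fold change than MYC, and at 100 nM 102 genes, 1.44%, did. For MGA the numbers were 538 genes (7.59%) and 520 genes (7.34%). MAX lay on the lower side of the middle, with 65.9% and 68.2% of these genes above it. MXI1 and MNT lay within the bulk at both doses.

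**Figure D4:**
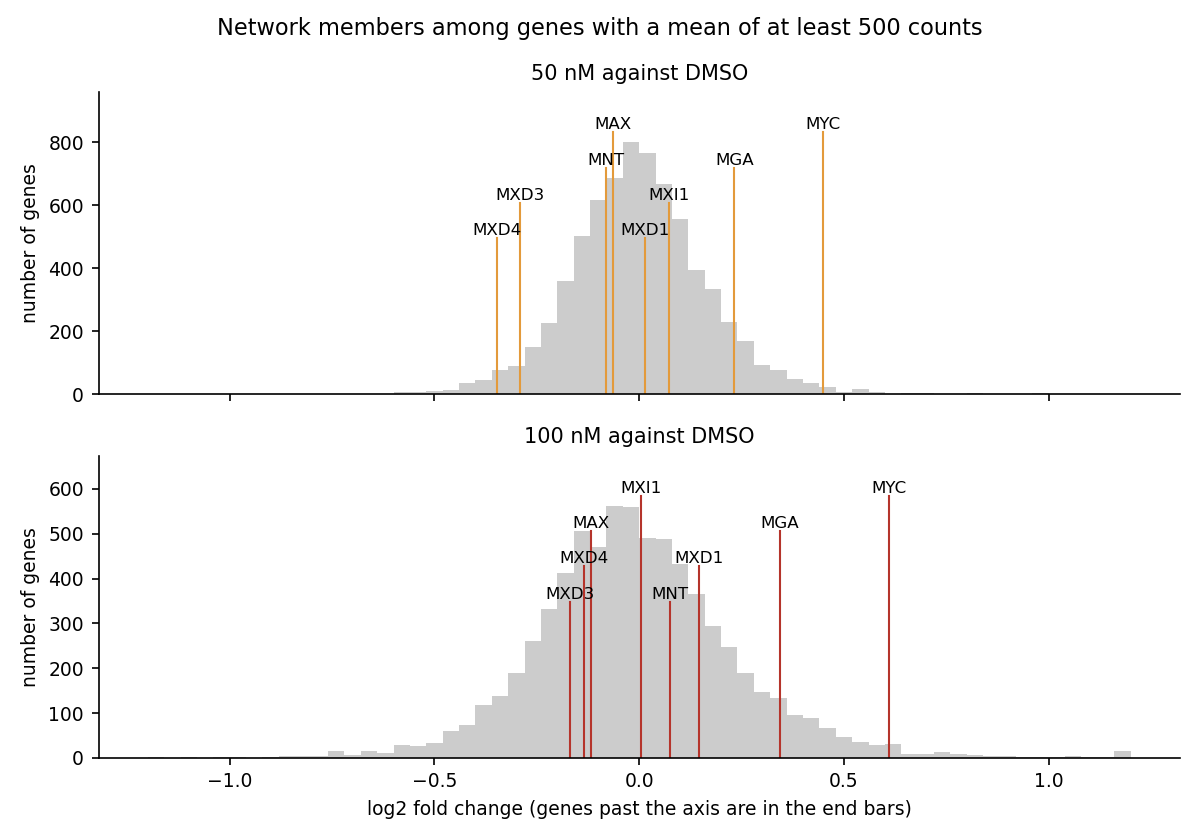
Number of genes by log2 fold change at 50 nM (top) and 100 nM (bottom) against DMSO, for the 7087 genes that averaged 500 counts or more; vertical lines mark the 8 members, of which MXD3 and MXD4 have lower means and are marked without being counted. MYC lies in the upper tail of both panels, with 74 and 102 genes beyond it.

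The genes nearest to MYC in the pair of log2 fold changes, by Euclidean distance among 7086 other genes of that depth, were ANAPC16, SLC35A5, OSBPL1A, MED13L and SLC1A4, at distances of 0.0106 to 0.0273. ANAPC16, for a subunit of the anaphase-promoting complex, had 1747, 2345 and 2769 counts. SLC1A4, for a neutral amino acid transporter, had 1661, 2215 and 2686 counts, and MED13L, for a Mediator subunit, had 8134, 10661 and 12813. Nearest to MGA, the antagonist with the largest difference at 100 nM, were CCNB1IP1, RFX5, UBR4, SUCLG2 and MTR, at distances of 0.00771 to 0.0112. MTR, for methionine synthase, had 2591, 2991 and 3435 counts. The pairs rest on 2 comparisons that share the DMSO library, so likeness over them is a description of 3 libraries.

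The corepressor that the MXD proteins and MNT recruit was read from 18 genes of the SIN3 and NCoR complexes. At 50 nM, 0 were higher and 3 lower past the adjusted test, beside 14.3% and 13.9% of all tested genes, with a median log2 fold change of -0.06. At 100 nM 2 were higher and 11 lower, beside 21.1% and 22.0%, with a median of -0.15. SIN3A, the scaffold that MXD proteins contact, had 2429, 2008 and 2104 counts and fell by 0.26 at 100 nM (-0.35 to -0.18). BRMS1, another subunit of SIN3 complexes, had 1493, 1231 and 1202 counts and fell by 0.37 (-0.48 to -0.26). The 2 genes that were higher at 100 nM belong to the NCoR side: NCOR1, with 4936, 4973 and 5617 counts, rose by 0.13 (0.07 to 0.18), and TBL1XR1, with 3279, 3366 and 3796, rose by 0.15 (0.09 to 0.22).

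Of 12 other genes of the Polycomb-type complex that contains MGA, 1 was higher and 4 were lower at 50 nM (all genes 14.3% and 13.9%), and 1 was higher and 6 were lower at 100 nM (all genes 21.1% and 22.0%), with medians of -0.09 and -0.17. MGA itself, at 0.34, rose where 6 of these genes fell and 5 did not pass. L3MBTL2, a chromatin reader, had 2018, 1803 and 1659 counts and fell by 0.34 at 100 nM (-0.43 to -0.25). PCGF6, the subunit that defines this variant of the complex, had 687, 593 and 563 counts and also fell by 0.34 (-0.51 to -0.18). RYBP was the gene that rose, with 572, 712 and 730 counts and a log2 fold change of 0.29 (0.14 to 0.46). RING1, a ubiquitin ligase of the complex, had 417, 473 and 475 counts, a difference of 0.13 (-0.06 to 0.32) that did not pass.

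Among 19 genes for MYC coactivators, 5 were higher and 2 lower at 50 nM (all genes 14.3% and 13.9%), and 8 were higher and 3 lower at 100 nM (all genes 21.1% and 22.0%), with medians of 0.04 and 0.03. EP400, a chromatin remodeller of the TIP60 complex, had 2348, 2529 and 3060 counts and rose by 0.33 at 100 nM (0.25 to 0.40). The acetyltransferase gene CREBBP had 1523, 1676 and 1983 counts and rose by 0.32 (0.23 to 0.42). WDR5, which binds MYC at chromatin and is counted in the Polycomb-type list as well, had 3239, 2955 and 3005 counts and fell by 0.17 (-0.24 to -0.09). PIM1, a kinase that phosphorylates histone H3 at MYC target genes and a target of FLT3 signaling through STAT5, had 461 counts in DMSO, 274 at 50 nM and 424 at 100 nM. Only the 50 nM library was low for PIM1, at -0.72, and the value of -0.18 at 100 nM (-0.37 to 0.02) did not pass.

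MYC protein is short-lived, and 24 genes for its modification and degradation were followed. At 50 nM 4 were higher and 7 lower (all genes 14.3% and 13.9%), and at 100 nM 4 were higher and 10 lower (all genes 21.1% and 22.0%), with medians of -0.02 and -0.06. SKP2, for a ubiquitin ligase subunit that targets MYC and is also a coactivator, had 1288, 1031 and 908 counts and fell by 0.56 at 100 nM (-0.69 to -0.44). USP28, for a deubiquitinase that stabilizes MYC, had 387, 293 and 284 counts and fell by 0.50 (-0.73 to -0.28). Higher were HUWE1, a ubiquitin ligase of MYC, with 9425, 10320 and 12024 counts and a rise of 0.29 (0.26 to 0.33), and FBXO32, for the ubiquitin ligase subunit atrogin-1, with 76, 94 and 145 counts and a rise of 0.87 (0.46 to 1.29).

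For regulators of MYC transcription and mRNA, 21 of 22 genes were tested, since LEF1 had at most 1 count. At 50 nM 5 were higher and 7 lower (all genes 14.3% and 13.9%), and at 100 nM 7 were higher and 9 lower (all genes 21.1% and 22.0%), with medians of -0.02 and -0.04. The IGF2BP genes encode mRNA-binding proteins that stabilize MYC mRNA, and they did not move together. IGF2BP2 had 2491, 2722 and 2998 counts and rose by 0.21 (0.13 to 0.29), and IGF2BP3 had 1661, 1699 and 2034 and rose by 0.24 (0.14 to 0.33). IGF2BP1 had 1755, 1585 and 1663 counts and fell by 0.13 (-0.23 to -0.04). ELAVL1, for another mRNA-binding protein, had 4686, 4240 and 3949 counts and fell by 0.30 (-0.37 to -0.24). E2F1, a cell cycle factor that is also counted below among MYC-activated genes, had 1521, 1202 and 1196 counts and fell by 0.40 (-0.51 to -0.29).

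MYC-activated genes were read from 87 genes in 4 lists. At 50 nM 30 of them (34.5%) were higher and 21 (24.1%) lower past the adjusted test, beside 14.3% and 13.9% of all tested genes. At 100 nM 28 (32.2%) were higher and 37 (42.5%) lower, none by 2-fold, beside 21.1% and 22.0%. Genes with many counts pass such a test at smaller differences, so the shares describe the list only. Their median log2 fold change was -0.01 at 50 nM and -0.04 at 100 nM. Each of the 4 lists held genes past the test in both directions at both doses.

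In ribosome biogenesis, 9 of 26 genes were higher and 4 lower at 50 nM (all genes 14.3% and 13.9%), and 10 were higher and 5 lower at 100 nM (all genes 21.1% and 22.0%), with medians of 0.03 and 0.01. RRP12, a ribosome assembly factor, had 3241, 3557 and 4024 counts and rose by 0.26 at 100 nM (0.19 to 0.32). PPAN had 419, 438 and 541 counts and rose by 0.31 (0.13 to 0.50), a value that is uncertain because a readthrough transcript shares its exons. UBTF, which drives ribosomal RNA transcription, had 6441, 4891 and 4885 counts and fell by 0.46 (-0.51 to -0.40). PA2G4 had 13058, 10840 and 10561 counts and fell by 0.36 (-0.40 to -0.33).

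In nucleotide and polyamine synthesis, 7 of 18 genes were higher and 4 lower at 50 nM (all genes 14.3% and 13.9%), and 7 were higher and 10 lower at 100 nM (all genes 21.1% and 22.0%), with medians of -0.01 and -0.08. CAD, for the enzyme that starts pyrimidine synthesis, had 6513, 8202 and 9724 counts and rose by 0.52 at 100 nM (0.48 to 0.57). ODC1, for the first enzyme of polyamine synthesis, had 8827, 10301 and 10910 counts and rose by 0.25 (0.21 to 0.29). Thymidylate synthase, from TYMS, lies nearer to DNA replication: TYMS had 9066, 8220 and 7776 counts and fell by 0.28 (-0.32 to -0.23). PRPS2, for an enzyme at the entry to nucleotide synthesis, had 2251, 1912 and 1920 counts and fell by 0.29 (-0.38 to -0.20).

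Metabolism and uptake included the largest single rise among the 4 lists, that of SLC7A5. At 50 nM 10 of 22 genes were higher and 4 lower (all genes 14.3% and 13.9%), and at 100 nM 9 were higher and 9 lower (all genes 21.1% and 22.0%), with medians of 0.03 and -0.02. SLC7A5, for the light chain of the LAT1 amino acid transporter, had 13742, 18612 and 24131 counts and rose by 0.76 at 100 nM (0.73 to 0.79). SLC1A5, for a glutamine transporter, had 11023, 13273 and 16174 counts and rose by 0.50 (0.46 to 0.53). LDHA, for lactate dehydrogenase, went the other way, with 37727, 30972 and 27796 counts, and fell by 0.50 (-0.52 to -0.48). HSPE1, for a mitochondrial chaperonin, had 7731, 6466 and 6042 counts and fell by 0.41 (-0.46 to -0.36).

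In cell cycle and translation, at 50 nM 4 of 21 genes were higher and 9 lower (all genes 14.3% and 13.9%), and at 100 nM 2 were higher and 13 lower (all genes 21.1% and 22.0%), with medians of -0.07 and -0.11. CCNE1, for cyclin E, had 852, 575 and 533 counts and fell by 0.73 at 100 nM (-0.89 to -0.58). CDC25A, for the phosphatase that activates cyclin-dependent kinases at S phase entry, had 2327, 1844 and 1495 counts and fell by 0.70 (-0.79 to -0.60). PTBP1, for a splicing factor, had 17360, 18070 and 21131 counts and rose by 0.23 (0.20 to 0.26). TERT, for the telomerase catalytic subunit, had 392, 411 and 436 counts, a difference of 0.10 (-0.10 to 0.30) that did not pass.

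**Figure D5:**
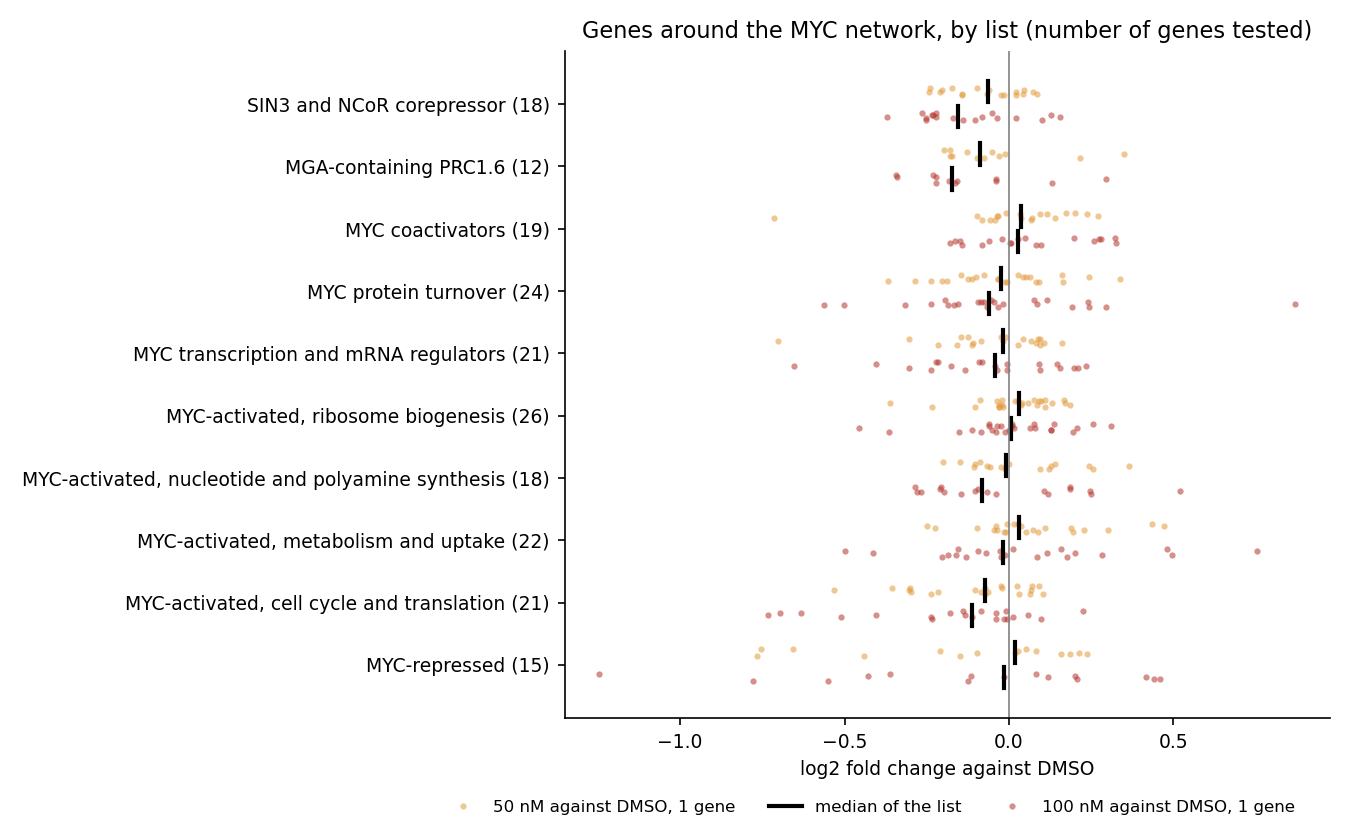
Log2 fold change against DMSO of every tested gene in 10 lists around the MYC network, at 50 nM (orange) and 100 nM (red); black bars are list medians, and the number of genes tested follows each name. List medians lie between -0.17 and 0.04, and the median of all tested genes was 0.00071 at 50 nM and -0.0023 at 100 nM. At 100 nM the lowest are those of the complex with MGA (-0.17), SIN3 and NCoR (-0.15) and cell cycle and translation (-0.11). The highest there is that of the coactivators (0.03). The lowest single value is that of GAS1 in the MYC-repressed list, -1.25 at 100 nM.

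Of 20 genes that MYC is known to repress, 15 were tested, and CDKN1C, CDKN2B, CLU, TGFBI and THBS1 had too few counts. At 50 nM 2 were higher and 2 lower (all genes 14.3% and 13.9%), and at 100 nM 6 were higher and 4 lower (all genes 21.1% and 22.0%), with medians of 0.02 and -0.01. CDKN1A, for the cell cycle inhibitor p21, had 1809, 2085 and 2557 counts and rose by 0.44 at 100 nM (0.35 to 0.53), in the same direction as MYC. KLF6 had 691, 767 and 989 counts and rose by 0.46 (0.32 to 0.60). CCND1, for cyclin D1, had 91, 52 and 55 counts and fell by 0.78 (-1.29 to -0.28), and KLF4 had 96, 69 and 68 and fell by 0.55 (-1.02 to -0.09). The gene called at 2-fold in this list, GAS1, is named because of its values: it had 28, 16 and 12 counts.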

How the data were processed

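RNA of Molm13 cells was sequenced by the authors after a stranded mRNA library preparation, and the paired reads were aligned to hg19 with Rsubread. What the authors deposited for each of the 3 libraries is a table of raw counts, whole numbers per gene that are not normalized, with exon coordinates in hg19. Whether counting used the strand is not given in the sources used here. The authors' EBSeq comparison table (posterior probabilities, fold changes and means per condition) was not used. In 1 label the unit of the higher dose lacks the nano prefix; the dose in the title, 100 nM, was taken.

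Of the 25702 identifiers, 23696 were given a RefSeq symbol (GRCh38.p14, names only). Library sizes were scaled by TMM in edgeR 4.0.16 (R 4.3.3) over genes with at least 10 counts in 1 library. For each pair of libraries, every gene was put to an exact binomial test, two-sided and with the scaled sizes as the expectation (scipy 1.17.1). Genes were called at 2-fold and a Benjamini-Hochberg adjusted p not above 0.05. Log2 fold changes had 0.5 counts added. Intervals are 95% Clopper-Pearson for count ratios, Poisson for levels, and delta-method for ratios of sums. The test was checked on simulated data with counting error only and larger fold changes than those of the members. That check does not cover spread between replicates. Alternatives were scaling by total counts, by DESeq2 1.42.0 or by TMM leaving out mitochondrially encoded genes, other count filters, a fold threshold of 1.5, 5 counts added, other antagonist sums, list means, and the exact test of edgeR at a biological coefficient of variation that was assumed.

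The members and lists were chosen with earlier results of these data known. Named genes are the 8 members, 5 other network genes, PVT1, the 2 largest rises and 2 largest falls at 100 nM in each list among genes with at least 50 counts in the higher of the DMSO and 100 nM libraries, and the 5 genes nearest to MYC and to the antagonist with the largest difference. Marker genes, IGF2BP1 and GAS1 were named outside this rule, after their values were seen.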

Additional observations from a re-analysis of the deposited data

How the results depend on the processing

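Another scaling (DESeq2 size factors, total counts, or TMM without mitochondrially encoded genes) kept the direction and the side of the adjusted threshold for every member at both doses. With 5 counts added, which does not enter the test, the directions were kept. The spread assumed between replicates, which 1 library per condition cannot give, decides the calls. In the exact test of edgeR, with a biological coefficient of variation assumed at 0.1, 0.2 or 0.4, the log2 fold change of MYC was 0.45 at 50 nM and 0.61 at 100 nM as before, but its adjusted p was at least 0.107, and MGA at both doses and MXD4 at 50 nM also lost their calls. At an unadjusted p of at most 0.05, 1 of the 8 members (MYC) passed with 0.1 at each dose against DMSO. With 0.2 or 0.4, 0 passed. The share of all genes passing at that p is not given here, so nothing is read from these counts about the members as a group.

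The genes called at 2-fold numbered 123 at 50 nM, 283 at 100 nM and 64 between the doses. In the same order they numbered 45, 146 and 14 with at least 50 counts in 1 library, 332, 864 and 143 at 1.5-fold, 27, 138 and 15 with a coefficient of 0.1, 0, 12 and 4 with 0.2, and 0, 0 and 0 with 0.4. At an unadjusted p the last 2 settings gave 120, 257 and 90, and 18, 46 and 27. Between the doses, the share of called genes that were higher was 40.6%. It was 61.5% at 1.5-fold, 6.67% (1 of 15) with a coefficient of 0.1 and 0% (0 of 4) with 0.2.

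The rise in balance at 100 nM, 0.54, was 0.62 with only the 4 MXD family genes and 0.46 with summed counts without length. The other 2 sums at 100 nM lay within the counting interval of that rise (0.47 to 0.61). All 4 at 50 nM lay within the interval of the 50 nM rise (0.38 to 0.52). List medians kept their sign under both scalings. The mean had the opposite sign to the median for nucleotide and polyamine synthesis at 50 nM (0.03) and the MYC-repressed list at 50 nM (-0.14). It also did for metabolism and uptake at 100 nM (0.04). The MYC-repressed median at 100 nM was 0.08 with at least 50 counts. At 100 nM the mean lay further from 0 than the median for cell cycle and translation (-0.18 against -0.11). It lay nearer to 0 for nucleotide and polyamine synthesis (-0.02 against -0.08).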
